A study of Mus musculus with 6 samples.

Results

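The Hox genes encode homeodomain transcription factors that give cells their position along the head-to-tail axis, and in mouse they sit in 4 compact clusters, A to D. The genes examined here are 38 of the 39 Hox genes that RefSeq lists for GRCm38, and the other is not analysed here. They are 10 genes of cluster A, 10 of B, 9 of C and 9 of D, out of 21882 protein-coding genes on chromosomes 1 to 19, X and Y. They were taken by symbol, and the rule uses no measured value. Each cluster was examined from its first to its last gene and 50 kb outside on both sides, which together made 885 kb.

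Open chromatin was profiled by ATAC-seq, an assay that uses Tn5 transposase to insert adapters where DNA is accessible, in retinas of C57BL/6 embryos at E14.5 (embryonic day). The 3 wild-type animals were Atoh7 +/+, and the 3 SE/SE animals carried a mutation of the Atoh7 shadow enhancer on both alleles. Atoh7 is a proneural gene needed for retinal ganglion cells, and a shadow enhancer is an additional element with activity overlapping that of the primary one. A library held the retinal pair of 1 animal, with about 100000 cells transposed and the equivalent of 50000 amplified. Wild-type libraries received 17, 18 and 19 PCR cycles and SE/SE libraries 15, 16 and 16, so cycles and genotype cannot be told apart. The authors deposited 1 peak list per library and 1 joint list per genotype. The wild-type library lists held 31340, 34797 and 27873 peaks and the SE/SE lists 39115, 42722 and 44242, while their read depth is unknown. As a check of the tissue, gene-start peaks were present in all 6 libraries for 8 of 8 retinal progenitor markers and 6 of 6 ganglion cell markers. The background over all protein-coding genes was 57.6%. Of markers of other cells, 1 of 6 for blood and microglia and 1 of 4 for endothelium also had one in all 6. So did 2 of 5 for lens and pigment epithelium and 3 of 7 for limb and body mesenchyme. These counts do not show that other cells were absent.

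Hox genes of a cluster are arranged in the order in which they are switched on along the body axis, and genes at the same place in different clusters (paralog groups 1 to 13) resemble each other most. Retinoic acid, CDX factors and trithorax proteins act to switch them on, whereas Polycomb complexes hold them silent where they are not used. The eye and forebrain lie in front of the Hox-expressing hindbrain and trunk, and in such anterior tissue Hox clusters are typically covered by Polycomb marks. PBX, MEIS and PKNOX proteins bind DNA together with Hox proteins.

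In the retina the peaks of the Hox clusters were weak, and most Hox genes had none at their start. Strength is given as the percentile of the deposited signal value within the library's own list, where 100 is the strongest peak. The lists differ in length and have no stated common scale, so neither the signal value nor its percentile shows a change between libraries. The 6 libraries together had 107 peaks in the windows, and 0 of them were above percentile 50. The highest single value was percentile 47.8, at Hoxc6 in SE/SE replicate 2. The median percentile of the Hox peaks was 7.20, 19.2 and 7.26 in wild-type replicates 1, 2 and 3, and 25.3, 21.8 and 23.7 in SE/SE replicates 1, 2 and 3. Hox peaks were also narrow. Their median width ran from 111.5 to 173 bp by library, against 289 to 322 bp for all peaks of the same lists. The authors' signal value is tied to peak width, so width and percentile are not separate evidence.

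**Figure D1:**
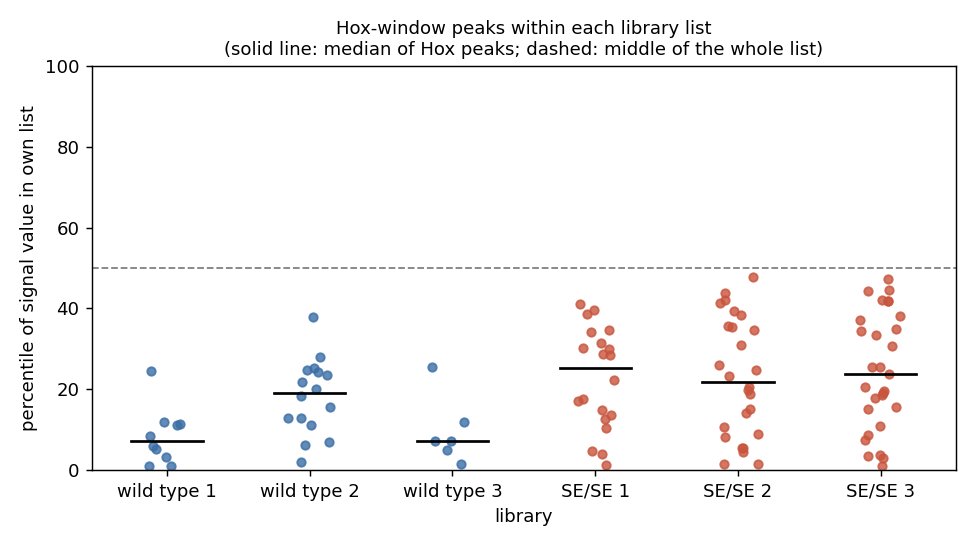
Percentile of the deposited signal value (vertical axis, 0 to 100) of each Hox-window peak within the list of its own library (horizontal axis, 6 libraries, wild type in blue and SE/SE in red). Points are peaks, solid lines are medians of the Hox peaks and the dashed line is the middle of the whole list, above which 0 of the 107 Hox peaks lie.

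The promoters that carried a peak are shown first, because they are the places where the deposited peaks and the known gene starts coincide. RefSeq promoters of the files' build (GRCm38.p6, 250 bases before to 50 after the start) were matched by symbol for 22 of the 38 genes, in 24 entries. Of these entries 5 overlapped a library peak, namely those of Hoxd1, Hoxd9, Hoxd10, Hoxd13 and Hoxa13. The peaks came from 6 libraries at Hoxd1, 2 at Hoxd9, 2 at Hoxd10, 1 at Hoxd13 and 1 at Hoxa13. Below, capitals mark bases covered by a peak in at least 1 library. Hoxd1 (chr2:74762730-74763029, plus strand) is the entry covered in 6 libraries. Hoxb1 (chr11:96365508-96365807, plus strand) is its paralog of cluster B, covered in 0, and is printed for contrast. Hoxd9 (chr2:74697513-74697812, plus strand), Hoxd10 (chr2:74691641-74691940, plus strand), Hoxd13 (chr2:74667975-74668274, plus strand) and Hoxa13 (chr6:52260831-52261130, minus strand) are the other covered entries.
Hoxd1: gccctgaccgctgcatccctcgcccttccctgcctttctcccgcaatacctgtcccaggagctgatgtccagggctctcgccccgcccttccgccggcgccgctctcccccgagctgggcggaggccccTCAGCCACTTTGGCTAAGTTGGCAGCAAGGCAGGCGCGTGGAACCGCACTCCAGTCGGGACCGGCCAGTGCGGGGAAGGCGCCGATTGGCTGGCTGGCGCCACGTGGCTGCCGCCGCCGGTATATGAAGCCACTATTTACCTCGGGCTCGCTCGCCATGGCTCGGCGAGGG
Hoxb1: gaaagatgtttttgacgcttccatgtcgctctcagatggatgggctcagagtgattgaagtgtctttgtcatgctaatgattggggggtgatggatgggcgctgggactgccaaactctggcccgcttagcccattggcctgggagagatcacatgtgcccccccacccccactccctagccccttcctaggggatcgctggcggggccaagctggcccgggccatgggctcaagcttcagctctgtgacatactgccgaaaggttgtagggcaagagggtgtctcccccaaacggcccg
Hoxd9: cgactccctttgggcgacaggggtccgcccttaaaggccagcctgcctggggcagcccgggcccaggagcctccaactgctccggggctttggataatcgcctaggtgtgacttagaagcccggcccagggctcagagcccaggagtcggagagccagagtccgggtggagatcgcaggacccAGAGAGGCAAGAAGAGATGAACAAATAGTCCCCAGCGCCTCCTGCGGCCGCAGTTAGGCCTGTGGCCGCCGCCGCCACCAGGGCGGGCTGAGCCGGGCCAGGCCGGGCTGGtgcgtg
Hoxd10: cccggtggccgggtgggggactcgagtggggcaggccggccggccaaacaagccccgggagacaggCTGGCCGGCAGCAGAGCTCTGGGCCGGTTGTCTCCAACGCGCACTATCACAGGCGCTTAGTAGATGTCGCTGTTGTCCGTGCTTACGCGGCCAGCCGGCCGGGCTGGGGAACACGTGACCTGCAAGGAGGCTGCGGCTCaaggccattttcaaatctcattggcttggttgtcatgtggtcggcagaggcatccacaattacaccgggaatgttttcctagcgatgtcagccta
Hoxd13: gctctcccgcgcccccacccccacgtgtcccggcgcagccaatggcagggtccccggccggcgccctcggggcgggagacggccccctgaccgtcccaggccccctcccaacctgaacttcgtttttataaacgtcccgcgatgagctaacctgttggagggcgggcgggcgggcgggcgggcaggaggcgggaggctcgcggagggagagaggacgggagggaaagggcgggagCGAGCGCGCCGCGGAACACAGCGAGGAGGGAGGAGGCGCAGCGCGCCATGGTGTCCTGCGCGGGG
Hoxa13: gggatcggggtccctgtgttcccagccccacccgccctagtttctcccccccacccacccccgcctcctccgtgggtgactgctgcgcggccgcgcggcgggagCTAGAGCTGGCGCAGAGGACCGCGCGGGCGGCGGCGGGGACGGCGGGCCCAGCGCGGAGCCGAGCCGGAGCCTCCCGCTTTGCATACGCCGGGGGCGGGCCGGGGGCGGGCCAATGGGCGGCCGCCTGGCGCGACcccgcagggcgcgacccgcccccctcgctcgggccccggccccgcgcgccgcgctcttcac

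The covered promoters were rich in G and C. Their median GC content was 69.7% (5 entries, 62.7% to 81%), against 55% for the 19 Hox entries without a library peak (39.7% to 64%) and 52.7% for all 32851 RefSeq promoters. The ranges of the covered and uncovered Hox entries overlapped. The observed over expected frequency of CpG had a median of 0.805 in the covered and 0.593 in the uncovered Hox entries. Of all promoters within the quartiles of the Hox entries for this ratio (0.399 to 0.883), 66.8% had a peak in 6 libraries, and of all promoters within the quartiles of the Hox entries for GC content (50.7% to 62.2%) 44.1% did. Of the Hox entries 4.17% (1 of 24) did. These are descriptions with no test.

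Short motifs were searched as exact letters on both strands of the same 300-base entries, and a match is a description, not a binding site. CCAAT, the NF-Y box, was in 15 of 24 Hox entries (62.5%, against 37.4% of all promoters) and in 4 of the 5 covered ones. GGGCGG, bound by SP and KLF factors and able to lie inside other G-rich words, was in 10 (41.7% against 35.7%), 4 of them covered. AGGTCA, bound by retinoic acid receptors, was in 7 (29.2% against 16.3%), of which only the Hoxd10 entry was covered. TATAAA was in 4 (16.7% against 13.6%) and AGGGGGC, a part of the CTCF consensus, in 2 (8.33% against 10.6%). TGATTNAT, a joint PBX and Hox word, was in the Hoxa2 and Hoxd11 entries (8.33% against 3.22%). TTTATNG, a word of CDX and posterior Hox proteins, was in the Hoxb8 and Hoxd4 entries (8.33% against 10.9%), and these last 2 words were in 0 of the 5 covered entries.

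Most Hox genes had no peak at their start in any library. A start peak is one within 1 kb of the RefSeq start, or, for the 16 members without a promoter entry, within 1 kb of either gene end. By this measure 12 of 38 Hox genes had a start peak in at least 1 library, where the background over all protein-coding genes was 62.6%. A single gene, Hoxd1, had one in 6 of 6 libraries, where the background was 57.6%. The other 26 genes had none. The members with a start peak numbered 1, 4 and 1 in the wild-type libraries and 5, 9 and 11 in the SE/SE libraries. As shares of the 38 these were 2.63%, 10.5% and 2.63%, and 13.2%, 23.7% and 28.9%. All protein-coding genes stood at 57.9% to 62.1%. The share was lower for Hox genes in 6 of 6 libraries, by a mean of 46.8 percentage points (difference −46.8, exact two-sided sign permutation over 6 libraries, p = 0.031, the smallest this design allows). As the tissue is bulk, fewer accessible cells and less accessibility per cell cannot be told apart.

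**Figure D2:**
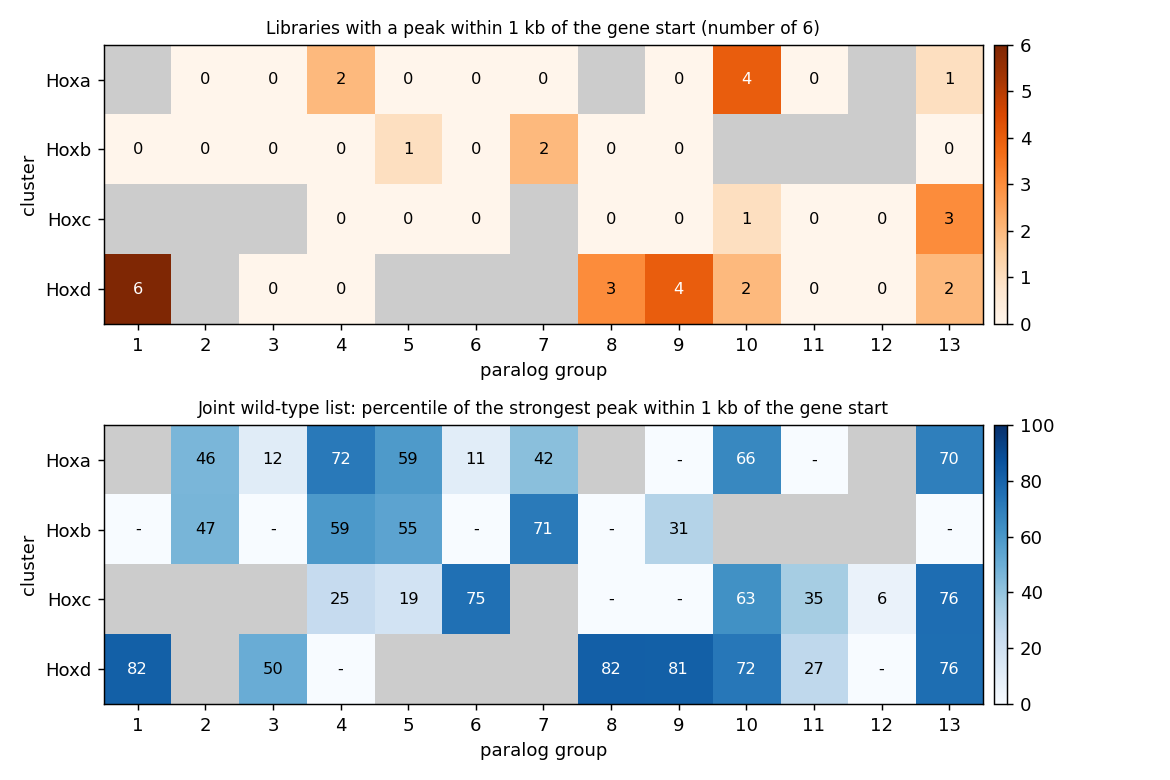
Hox genes arranged by cluster (rows) and paralog group (columns). The upper grid gives the number of libraries (0 to 6) with a peak within 1 kb of the gene start, and the lower grid the percentile, in the joint wild-type list, of the strongest such peak, with a dash where there is none. Grey squares hold no gene analysed here. Hoxd1 is the one square at 6, and the upper grid has 26 zeros.

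Hoxd1, a gene of the 3′ end of its cluster known in mouse for a role in pain-sensing neurons, was the most regularly accessible member. Its start peak had signal values of 72.5, 135 and 30.8 in wild-type replicates 1, 2 and 3, at percentiles 24.5, 37.9 and 7.29. In SE/SE replicates 1, 2 and 3 the signal values were 120.1, 166 and 168, at percentiles 34.1, 41.2 and 42.1. Within its own list the peak stood lowest in wild-type replicate 3, and wild-type replicate 2 lay above SE/SE replicate 1. The merged region, 74762859 to 74763058 on chromosome 2, lies over the start of Hoxd1. It also lies over the higher-coordinate end of Haglr, a long noncoding RNA gene, so the peak cannot be given to either gene alone. The joint lists placed this peak at percentile 81.5 (wild type) and 84.8 (SE/SE).

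Hoxd9 and Hoxa10 followed with 4 libraries each. At Hoxd9, which acts with its neighbours in the forelimb and in motor neurons, the strongest start peak had signal 54.7 in wild-type replicate 2 (percentile 18.3) and 38.4, 49.8 and 58.7 in SE/SE replicates 1, 2 and 3 (percentiles 10.4, 15.1 and 18.6). At Hoxa10, known for the lumbar spine and the uterus, it was 28.9 in wild-type replicate 2 (percentile 6.13) and 26.4, 74.0 and 81.5 in the SE/SE replicates (percentiles 4.11, 23.2 and 25.4). Wild-type replicates 1 and 3 had no peak at either gene. The Hoxd9 value of SE/SE replicate 2 belongs to a region over the gene start, and the others to a region 149 bp away. At both genes the genotypes differed in how many libraries had a peak, 1 of 3 against 3 of 3.

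Hoxd8 and Hoxc13 were the members with a start peak in 3 SE/SE and 0 wild-type libraries, 2 of 38 where the background over protein-coding genes was 0.772%. At Hoxd8 the signal was 153, 35.2 and 116 in SE/SE replicates 1, 2 and 3, at percentiles 39.6, 8.92 and 33.5. At Hoxc13, a gene of hair and nail formation at the posterior end of its cluster, it was 94.8, 172 and 166, at percentiles 28.8, 42.1 and 41.9. The authors' joint wild-type list nevertheless held a peak at each, at percentile 81.8 for Hoxd8 and 76.5 for Hoxc13. The absence in 3 wild-type libraries is therefore an absence from their lists, and Hoxd8 was the strongest Hox peak of both joint lists.

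The other members with a start peak were seen in 1 or 2 libraries. Hoxa4, Hoxb7 and Hoxd13 had one in 2 SE/SE and 0 wild-type libraries. Hoxa4 had signal values of 47.3 and 50.8 in SE/SE replicates 2 and 3. Hoxb7 had 39.1 and 60.1 in the same replicates. Hoxd13, a digit gene, had 22.3 and 32.03, close to the lowest signal value of any deposited list, 20. The capitals of its promoter entry come from another peak of SE/SE replicate 3, with signal 21.5 (percentile 1.06). Hoxd10, a lumbar motor neuron gene, had 41.5 in wild-type replicate 2 and 25.1 in SE/SE replicate 3, the one case of equal numbers below 3. Hoxa13 (34.7, limb and urogenital tract) and Hoxc10 (61.6, lumbar motor neurons) were found in SE/SE replicate 3 only, and Hoxb5 (27.1) in SE/SE replicate 2 only.

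By paralog group, 2 of 11 genes of groups 1 to 4, 3 of 11 of groups 5 to 8 and 7 of 16 of groups 9 to 13 had a start peak in any library. Groups 1 to 4 include the hindbrain genes, and of these Hoxa2, Hoxa3, Hoxb1, Hoxb2, Hoxb3, Hoxb4, Hoxc4, Hoxd3 and Hoxd4 had none. The central genes Hoxa5, Hoxa6, Hoxa7, Hoxb6, Hoxb8, Hoxc5, Hoxc6 and Hoxc8 had none. The 1 kb limit decides some of these: a region in 6 libraries lies 1229 bp from the start of Hoxa3, and one in 5 libraries 1029 bp from an end of Hoxc6. Of the posterior genes, Hoxa9, Hoxa11, Hoxb9, Hoxb13, Hoxc9, Hoxc11, Hoxc12, Hoxd11 and Hoxd12 had none. The counts per group are small and were not tested against each other.

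The authors' joint lists, which are longer, held start peaks at many more Hox genes. The joint wild-type list had one at 27 of 38 (background 67.4%) and the joint SE/SE list at 26 of 38 (background 68.1%), 25 genes being in both. The sources used here do not say how the joint lists were made. For 13 of 38 Hox genes both joint lists had a start peak while none of the 6 libraries did, where the background was 4.54%. Examples are Hoxc6, at percentiles 75.2 (joint wild type) and 81.0 (joint SE/SE), Hoxb4 at 59.3 and 69.7, and Hoxa5, a gene of lung development, at 58.9 and 64.3. Hoxa11 was in the joint SE/SE list only, and Hoxa3 and Hoxb9 in the joint wild-type list only. The 10 genes in neither list were Hoxa9, Hoxb1, Hoxb3, Hoxb6, Hoxb8, Hoxb13, Hoxc8, Hoxc9, Hoxd4 and Hoxd12. Taking the strongest start peak per listed member, median percentiles were 58.9 (wild type) and 66.0 (SE/SE), while over all joint peaks of the Hox windows they were 36.6 and 38.9, below the middle of the lists.

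Merging the library peaks that share 1 bp or more gave 34 regions in the Hox windows, 23 inside the clusters and 11 in the flanks. Of these 14 lay within 1 kb of a member's start, 5 elsewhere in a member gene and 15 outside member genes. A peak in 6 of 6 libraries was found at 5 regions (14.7%), where the background over all 46780 regions was 52.1%. Among the 23115 regions of the genome whose highest percentile was no higher than that of the strongest Hox region, the background was 8.64%. The low share of such regions thus went with the low strength of Hox peaks. Without wild-type replicate 3, the shortest list, 10 Hox regions had a peak in all remaining libraries. That rule asks for fewer libraries, and the share over all regions under it is not given here.

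**Figure D3:**
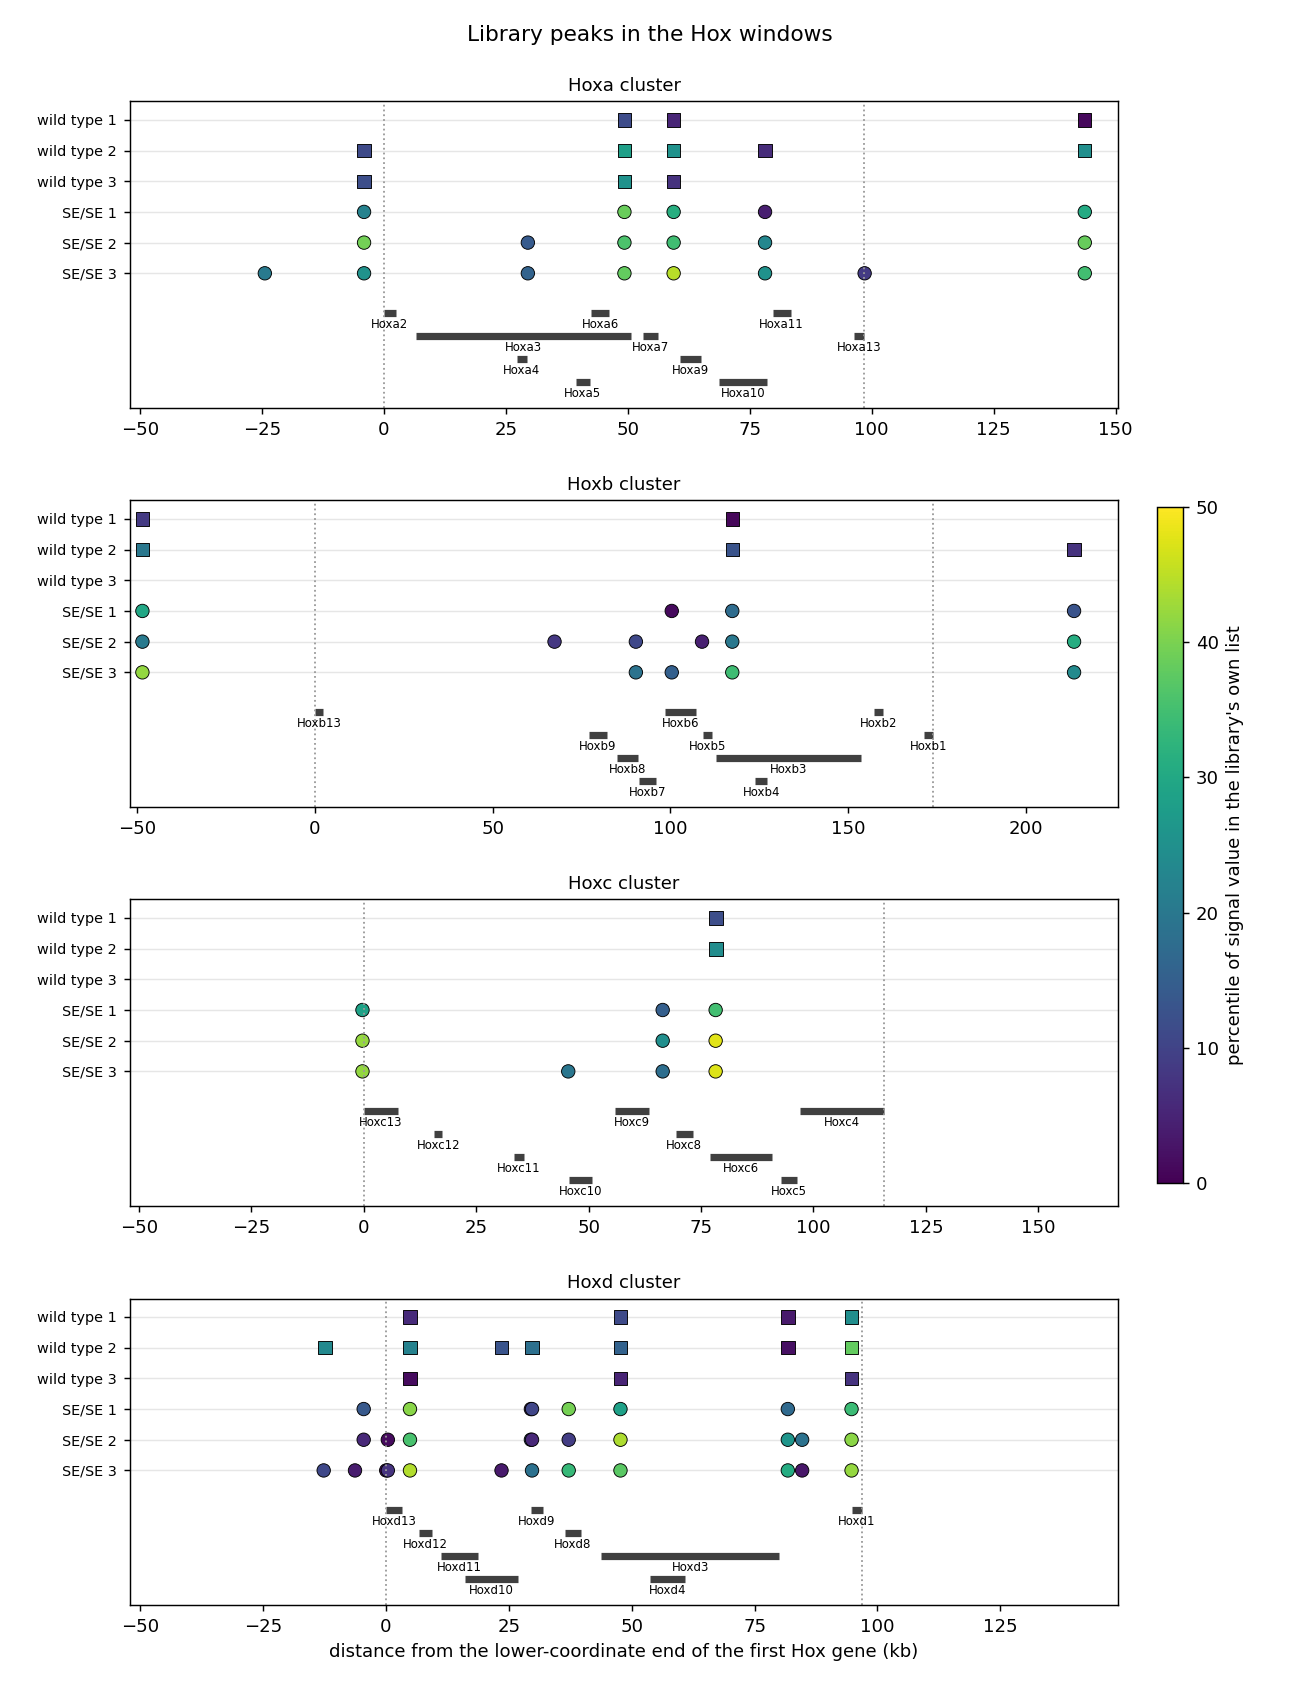
Library peaks along the 4 Hox windows. The horizontal axis is the distance in kb from the first gene's lower-coordinate end, rows are libraries (squares wild type, circles SE/SE), colour is the percentile in the library's own list (0 to 50), bars below are the Hox genes and dotted lines mark the cluster's limits. Columns filled in all 6 rows occur 2 times in cluster A and 3 times in D, and the Hoxb and Hoxc rows of wild-type replicate 3 are empty.

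The 5 regions seen in every library lay in clusters A and D. In D, besides the Hoxd1 start, the region 74673052 to 74673271 between Hoxd13 and Hoxd12 had signal 28.1, 64.5 and 21.9 in wild-type replicates 1, 2 and 3 and 163, 128 and 185 in the SE/SE replicates. Its wild-type percentiles were 5.90, 21.9 and 1.54 and its SE/SE percentiles 41.1, 35.5 and 44.3, each within its own list. The region 74715846 to 74716089 lies inside Hoxd3 and at the higher-coordinate end of the noncoding RNA gene Hoxd3os1. Its signal was 37.6, 47.9 and 27.0 in wild type and 93.2, 186 and 136 in SE/SE. Its percentiles were 11.2, 15.6 and 4.94 in the wild-type lists and 28.5, 43.9 and 37.2 in the SE/SE lists. As these lists differ in length, the values describe each library and compare no genotypes.

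In cluster A, on chromosome 6, the region 52211638 to 52211838 lies within the long annotated span of Hoxa3, between Hoxa6 and Hoxa7. It had signal 38.0, 85.96 and 77.1 in wild-type replicates 1, 2 and 3 and 146, 129.9 and 141 in the SE/SE replicates. The region 52221708 to 52221933, between Hoxa7 and Hoxa9, had 27.0, 75.9 and 30.6 in wild type and 107, 124 and 187 in SE/SE. Their percentiles ran from 11.4 to 28.01 and from 5.16 to 25.3 in wild type, and from 35.7 to 38.6 and from 31.3 to 44.6 in SE/SE. A flank region 45089 bp beyond Hoxa13 (52305969 to 52306180) was in 5 libraries, at 21.4 and 73.7 in wild-type replicates 1 and 2 and 102, 146 and 123 in the SE/SE replicates.

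Clusters B and C had no region in all 6 libraries. In B, on chromosome 11, a region inside the long span of Hoxb3 (96311652 to 96311834) was in 5, at percentiles 0.960 and 12.9 in wild-type replicates 1 and 2 and 17.6, 19.9 and 34.5 in SE/SE. A flank region over Ttll6 (96145706 to 96145906) was also in 5, at percentiles 8.504 and 20.04 in the same wild-type replicates and 29.9, 20.5 and 41.9 in SE/SE. A region 42047 bp beyond Hoxb1 (96407805 to 96407981) was in 4, with signal 30.4 in wild-type replicate 2 and 43.5, 105 and 75.2 in SE/SE. In C, on chromosome 15, the region at Hoxc6 (102999255 to 102999493), a brachial motor neuron gene, was in 5 libraries. Its signal was 38.8 and 72.5 in wild-type replicates 1 and 2 and 124, 223 and 211 in SE/SE, the last 2 at percentiles 47.8 and 47.3.

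Regions in 3 SE/SE and 0 wild-type libraries numbered 3 of 34 (8.82%), where the background was 8.23%, and 16.3% among the 23115 regions as weak as the Hox regions. The Hox share is near the background, and it is not a result about Hox. The 3 regions were those at the starts of Hoxc13 (102920655 to 102921007, which ends 124 bp before the annotated gene) and Hoxd8 (74705186 to 74705695) and one between Hoxc9 and Hoxc8 (102987503 to 102987689). The last had signal 48.8, 79.6 and 56.3 in the SE/SE replicates. The reverse pattern was found at 0 regions, where the background was 0.0321%. The count of SE/SE-only regions was 6 without wild-type replicate 2, 7 without SE/SE replicate 1 and 5 without SE/SE replicate 3. Leaving out a library asks for the pattern in fewer libraries, which is a looser rule. The share over all regions under that rule is not given here, so these counts are not a result about Hox. More SE/SE than wild-type libraries were found at 27 of 34 regions (79.4%), where the background was 45.8%, and 87.2% among the regions as weak as the Hox regions. Fewer were found at 1, where the background was 0.923%. It is a region in Evx2 seen only in wild-type replicate 2 (74655819 to 74656010), and it shares its joint peaks with a neighbouring region seen only in SE/SE replicate 3 (74655547 to 74655680).

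Every SE/SE library had more Hox peaks than every wild-type library. The counts were 10, 16 and 6 in wild-type replicates 1, 2 and 3 (10.7 ± 5.03, SD, n = 3) and 20, 26 and 29 in SE/SE (25 ± 4.58, SD, n = 3). The difference of 14.3 had an exact permutation p of 0.1, the smallest that 3 against 3 allows. Per 10000 peaks of the same list the values were 3.19, 4.60 and 2.15 against 5.11, 6.09 and 6.55 (difference 2.60, exact permutation p = 0.1). The bases covered were 1286, 2336 and 779 against 3661, 4490 and 5362 (difference 3037, exact permutation p = 0.1). Members with a start peak differed by 6.33 genes (exact permutation p = 0.1). The SE/SE lists were also the longer ones. With the 27873 strongest peaks of every list, Hox peaks numbered 4, 8 and 6 in wild type and 9, 8 and 8 in SE/SE, so that the genotypes touched at 8 (difference 2.33, exact permutation p = 0.3). On these lists the bases covered were 554, 1385 and 779 against 2167, 1768 and 1826 (difference 1014, exact permutation p = 0.1). Members with a start peak were then 1, 1 and 1 against 3, 2 and 2 (difference 1.33, exact permutation p = 0.1).

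**Figure D4:**
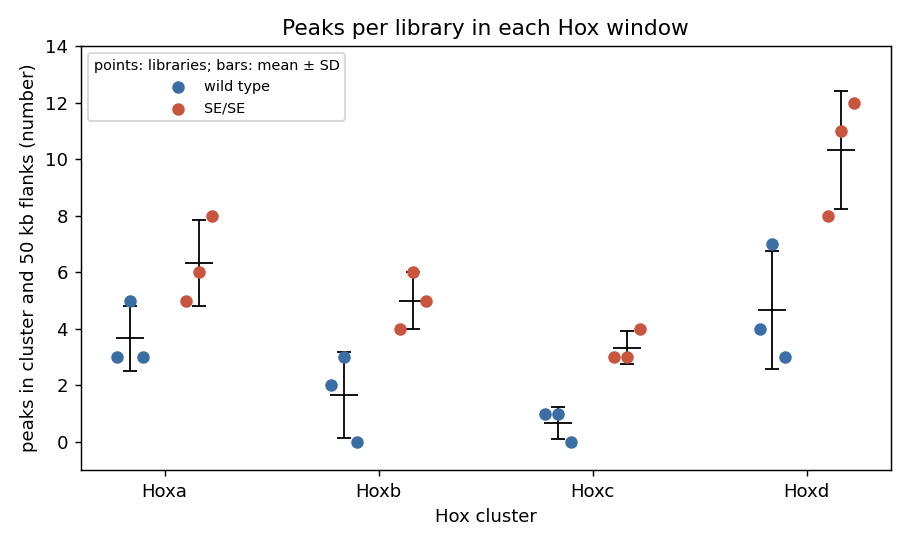
Number of peaks (vertical axis) in each Hox cluster and its 50 kb flanks (horizontal axis) per library. Points are libraries, wild type in blue and SE/SE in red, and bars give the mean ± SD of 3. Cluster D has the most peaks in both genotypes, 3 to 7 in wild type and 8 to 12 in SE/SE.

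In the full lists the difference in number was seen in each cluster, and in A the genotypes touched at 5. Peaks in window A were 3, 5 and 3 in wild type and 5, 6 and 8 in SE/SE. Those in B were 2, 3 and 0 against 4, 6 and 5, those in C 1, 1 and 0 against 3, 3 and 4, and those in D 4, 7 and 3 against 8, 11 and 12. With lists of equal length the genotypes stayed apart in C only, at 1, 1 and 0 against 2, 2 and 2. The counts were then 1, 3 and 3 against 3, 3 and 2 in A. They were 0, 1 and 0 against 1, 0 and 1 in B, and 2, 3 and 3 against 3, 3 and 3 in D. Genes listed as markers of cells that do use Hox genes were counted per library in the full lists. Whether retinal cells also use these marker genes was not tested. Of 12 genes of the hindbrain, spinal cord and other Hox-expressing cells, 3 to 4 had a start peak in the wild-type libraries and 4 to 6 in the SE/SE libraries. Among those with none in any library were Phox2a, Evx1, Evx2, Cdx1 and Cdx2, while Egr2, Olig2 and Prdm8 had one in all 6. Of 7 limb and body mesenchyme markers, 3 had one in each wild-type library and 3 to 5 in the SE/SE libraries, and Tbx4 and Tbx5 had none. The share of all protein-coding genes with a start peak was 57.9% to 60.1% in wild type and 61.2% to 62.1% in SE/SE. The part of these in the Hox counts was not tested.

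Over the 4 clusters together, peaks stood closer together inside than in the flanks, and cluster B did not follow this. The density inside was 1.65, 2.268 and 1.03 peaks per 100 kb in wild-type replicates 1, 2 and 3 and 2.89, 4.12 and 4.12 in SE/SE. In the 50 kb flanks it was 0.5, 1.25 and 0.25 and then 1.5, 1.5 and 2.5. It was higher inside in 6 of 6 libraries, by a mean of 1.43 (exact sign permutation p = 0.031). By cluster, the mean inside and in the flanks was 3.05 and 2 in A, 1.30 and 0.5 in C, and 6.88 and 0.833 in D. In B it was 1.05 inside and 1.5 in the flanks, with the inside lower in 4 of 6 libraries.

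In the library lists cluster D was the densest, and A came next. Inside D the density was 4.13, 6.19 and 3.10 peaks per 100 kb in wild type and 7.22, 10.3 and 10.3 in SE/SE. Inside A it was 2.03, 3.05 and 2.03, then 3.05, 4.06 and 4.06. Inside B it was 0.575, 0.575 and 0, then 1.15, 2.30 and 1.72, and inside C 0.864, 0.864 and 0, then 1.73, 1.73 and 2.59. The mean difference was −3.83 for A minus D, −5.82 for B minus D and −5.58 for C minus D, and 1.99 for A minus B and 1.75 for A minus C. Each of these held in 6 of 6 libraries, with an exact sign permutation p adjusted over 6 pairs (Benjamini-Hochberg) of 0.0375. B and C differed by −0.242, with an exact adjusted p of 0.25, which does not show that they are alike. The longest stretch inside a cluster without a library peak was 29.4 kb in A (over Hoxa2 and Hoxa4), 67.4 kb in B (over Hoxb13), 45.4 kb in C (over Hoxc13, Hoxc12 and Hoxc11) and 33.8 kb in D (over Hoxd4).

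Against the rest of the genome, how dense the Hox peaks were depended on the stretch and the lists compared. The Hox windows held 1.13, 1.81 and 0.678 peaks per 100 kb in wild type and 2.26, 2.94 and 3.28 in SE/SE, where all chromosomes held 1.15, 1.28 and 1.02, then 1.44, 1.57 and 1.63. Hox was higher in 4 of 6 libraries, by a mean of 0.668 (exact sign permutation p = 0.125). Without the flanks the clusters themselves were denser than the chromosomes in 6 of 6 libraries, by a mean of 1.33 (exact sign permutation p = 0.031). In wild-type replicate 3 the densities nearly tied, at 1.031 inside and 1.024 over all chromosomes. For the windows with their flanks the sign turned with lists of equal length (−0.214, exact sign permutation p = 0.031). Among peaks of the upper part of each list (above its median) the window difference was −0.674, since the Hox windows then held 0 peaks. With lists of equal length the clusters without flanks held 0.825, 1.03 and 1.03 peaks per 100 kb in wild type. In SE/SE they held 1.24, 1.03 and 1.24, where all chromosomes held 1.02 in every library. 

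**Figure D5:**
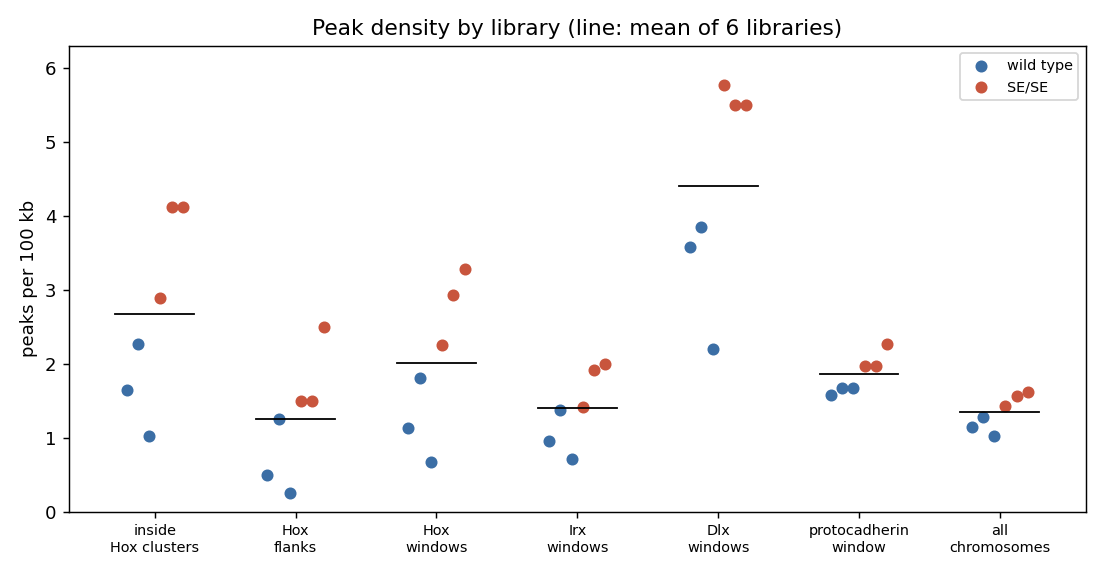
Peaks per 100 kb (vertical axis) in the Hox clusters, their flanks, the whole Hox windows, the windows of 3 other gene families and all chromosomes (horizontal axis). Points are libraries, wild type in blue and SE/SE in red, and lines are means of 6. The Dlx windows lie above the Hox windows in each library.

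Other clustered developmental genes were compared through windows built in the same way, but of unlike make-up. Genes spanned 18.6 to 26.2 kb of each Dlx window, with 50 kb flanks on both sides. They spanned 1311 and 882 kb in the 2 Iroquois windows, and 485 of 885 kb in the Hox windows. The densities thus compare unlike mixtures of cluster and flank. The Dlx windows hold homeobox genes, some of them used in forebrain and retinal interneurons. They had 3.58, 3.85 and 2.20 peaks per 100 kb in wild type and 5.78, 5.50 and 5.50 in SE/SE. The Hox windows were lower in 6 of 6 libraries (difference −2.39, exact sign permutation p = 0.031, adjusted over 3 families 0.0938). Against the Iroquois homeobox windows Hox was higher by 0.616 in 5 of 6 libraries (exact adjusted p 0.0938), and with lists of equal length the difference was −0.0397. Against the clustered protocadherin genes, surface proteins of neurons, it was higher by 0.153 in 4 of 6 libraries (exact adjusted p 0.688). That difference was −0.00828 without SE/SE replicate 2 and −0.0168 without SE/SE replicate 3. With lists of equal length it was −0.739 (exact sign permutation, adjusted p = 0.0469), with Hox lower. Above the median of each list it was −1.09. The Hox windows held 0 peaks there, so the sign was fixed and no p is given. Start peaks are given as counts with no test. Of 6 Dlx genes 4 had one in all libraries, as did 4 of 6 Iroquois genes, against 1 of 38 Hox genes. The background over all protein-coding genes was 57.6%, so these small Dlx and Iroquois counts set neither family apart. Median percentiles over the Dlx and Iroquois genes with a peak were 65.8 and 55.3.

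The joint lists were dense over the Hox clusters. The joint wild-type list had 98 peaks there (11.1 per 100 kb, where all chromosomes had 3.86) and the joint SE/SE list 116 (13.1, where all had 4.44). Dlx windows stood at 16.8 and 17.3, and Iroquois windows at 6.35 and 6.89. Inside the Hox clusters the joint lists reached 15.3 and 18.6 per 100 kb, and the order of the clusters turned, with 22.3 and 28.4 in A and 19.6 and 23.7 in D. Of the joint Hox peaks 31.6% (wild type) and 26.7% (SE/SE) overlapped a peak of any library, where 39.5% and 34.0% of all joint peaks did. Of the joint wild-type Hox peaks 95.9% overlapped the joint SE/SE list, and of the joint SE/SE Hox peaks 75% overlapped the joint wild-type list, where 93.7% and 78.0% of all did. The Hox shares were thus near those of the whole lists.

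Few neighbours within the windows had a peak of a library at their ends. Neither Evx2 nor Ttll6, the 2 other protein-coding genes, had a start peak in a library, though both joint lists held one at each. For Evx2 it was at percentiles 48.6 (wild type) and 46.2 (SE/SE), and for Ttll6 at 21.9 and 40.9. All 6 miRNA genes, which include Mir10a, Mir10b and Mir615, also lacked a library peak. Of these, Mir615 and Mir196b had a peak at their ends in both joint lists. Of 29 long noncoding RNA genes 7 (24.1%) had a peak within 1 kb of a start or end in some library, near the background of 24.9% for all such genes. Haglr and Hoxd3os1 had it in 6 of 6, through the Hoxd1 and Hoxd3 regions described above. Gm38462, which overlaps Hoxd8, had it in 3 SE/SE and 0 wild-type libraries. In clusters B and C no noncoding neighbour had one in a library, while Gm29905, beside Hoxc6, was in both joint lists at percentiles 75.2 and 81.0.

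Of 44 genes that act on or with Hox genes and proteins, 36 had a start peak in 6 of 6 libraries, where 57.6% of all protein-coding genes did, 5 in none and 3 in some, and 0 separated the genotypes as 3 against 0. All 15 Polycomb genes, such as Ezh2, Eed and Bmi1, had one in every library, at a median percentile of 93.8, and so did all 9 cofactor genes of the PBX, MEIS and PKNOX families, at 90.9. Of 5 trithorax and demethylase genes 4 did, and Kdm6b, a demethylase of the Polycomb mark, had one in 1 wild-type and 3 SE/SE libraries. Of 12 upstream regulators 6 did, below the share of all genes, among them Rarb and Gdf11. Cdx1, Cdx2 and Cdx4, trunk activators of Hox genes, and Cyp26b1, which degrades retinoic acid, had none. Of 3 architecture genes Ctcf and Smc3 had one in 6 libraries and Rad21 in 0, and Rad21 was also in neither joint list.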

How the data were processed

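Peak lists of 6 ATAC-seq libraries and 2 joint lists were used as the authors deposited them. Tools listed in the submitters' processing notes are Genrich 0.5, bedtools 2.27.0, BWA, cutadapt and limma, with no statement of what each did, and the build is GRCm38 (mm10). Trimming, Tn5 shift, duplicate removal and peak settings are not given in the sources used here. The deposited signal value of each peak is tied to peak width and has no stated scaling between libraries, so it was only ranked within a list. No read counts were analysed here, and depth is unknown.

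Library peaks sharing 1 bp or more were merged into regions. Gene positions, starts and promoters came from RefSeq for GRCm38.p6. A start was known for 22 members, and both gene ends served for 16. For all protein-coding genes 79.9% had a known start. 1 Hox gene, its immediate neighbours and some genes of the fixed lists are not reported here by name.

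Groups were compared by exact two-sided label permutation (20 assignments). Windows were compared within libraries by exact sign permutation (64 assignments), adjusted by Benjamini-Hochberg over families or cluster pairs. Alternatives covered each library left out, lists of equal length, the stronger part of each list, flanks, overlap, start distance and a replicate block. Python 3.11.15, numpy 2.4.6 and pandas 2.3.3 were used, and the functions were tested on simulated data.

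The members, gene lists, motifs and tests were chosen with earlier results of these data known. Members given in full were up to 4 per cluster with start peaks in most libraries, those separating the genotypes, up to 3 regions per cluster in most libraries, and up to 2 neighbours per cluster.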

Additional observations from a re-analysis of the deposited data

How the results depend on the processing

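Of 197 values under alternatives, 120 kept their direction and their side of the threshold or stayed within the allowed range. Leaving out 1 library, the SE/SE minus wild-type difference stayed positive: 12 to 17 Hox peaks, 2.02 to 3.25 per 10000 peaks, 2608 to 3472 bases and 5 to 8 start-peak genes. The Hox minus genome density ran from 0.471 to 0.870, Hox minus Iroquois from 0.484 to 0.745, Hox minus Dlx from −2.56 to −2.16 and Hox minus protocadherin from −0.0168 to 0.384, with −0.00828 without SE/SE replicate 2. With 5 libraries an exact sign permutation cannot give a p under 0.0625, so no such value passes: inside minus flanks 1.19 to 1.56, A minus B 1.90 to 2.10, A minus C 1.63 to 1.87, A minus D −4.39 to −3.35, B minus C −0.405 to −0.117, B minus D −6.37 to −5.27, C minus D −6.08 to −4.98, and the gene share −49.5 to −44.9 points. Regions in all libraries numbered 5 to 10, regions in SE/SE only 3 to 7 and regions in wild type only 0, each under a rule made looser by the missing library.

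With lists of equal length, Hox minus genome was −0.214, minus Iroquois −0.0397, minus Dlx −1.85 and minus protocadherin −0.739, with 2 regions in all libraries and 1 in SE/SE only. Above the median of each list the Hox windows held no peak: the differences between genotypes, between clusters and between inside and flanks, and the region counts, were 0, and Hox minus genome, Iroquois, Dlx and protocadherin were −0.674, −0.439, −1.47 and −1.09. Without flanks Hox minus genome, Iroquois and Dlx were 1.33, 1.36 and −12.0. With 100 kb flanks Hox minus protocadherin was −0.0982 and 8 regions were in all libraries, as more sequence was included. With 50 kb flanks added, B minus C was 0.290. When peaks had to cover 50% of the region, 3 regions were in all libraries. The cause of these changes was not tested beyond what each alternative itself leaves out.

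Same-numbered libraries came from different animals, and their deviations correlated at 0.0178, 0.0114 and 0.0426. Between wild-type and SE/SE libraries of unlike number the correlations ran from −0.0342 to 0.0160. Whether the numbers pair anything was not tested. With the replicate block the difference stayed 14.3 Hox peaks, 2.60 per 10000, 3037 bases and 6.33 genes, at an exact permutation p of 0.25, the smallest that 8 assignments allow. Using both gene ends for every gene, chosen after seeing the data, gave a difference of 7 genes and a share difference of −45.1 points.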
